A study of Homo sapiens with 2 samples.

Results

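Stretches of neighbouring genes are described, on chromosome 6 from band 6p24 onward and on band 17q25, in A2058 cells, an established human melanoma line. The chromosome 6 stretch runs from TFAP2A to GMPR and holds 26 members, and the chromosome 17 stretch runs from ARL16 to DUS1L and holds 21. These 47 genes are among 12832 genes with a detected probe. The members were chosen on these same arrays, selected on the lower signals of neighbouring genes in drug-selected cells. Their differences are therefore given as a description, with no test, and the counts of lower members cannot stand as support for the choice.

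Parental A2058 cells and carmustine-resistant A2058 cells were compared on Illumina bead arrays, with 1 array of each. Carmustine is an alkylating drug that crosslinks the strands of DNA. Per the labels, the resistant cells, called drug-selected below, were obtained from the parental cells by selection at 100 uM carmustine for 6 months. The paper's methods describe repeated cycles of treatment, drug removal and regrowth, with the concentration raised gradually to 100 uM. They also state that parental cells were kept in culture alongside. Both populations were grown in the same serum-containing medium, and no carmustine is labelled for the parental cells. The sources used here do not say whether the selected population is 1 clone. The comparison asks which transcripts of the 2 stretches differ between the populations. With 1 array per group no difference has a replicate check, array and cell population cannot be told apart, and precision is limited by the number of arrays. The arrays read RNA from whole cultures, so fewer cells of a type and less RNA per cell cannot be told apart, and copies of DNA were not measured.

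Each array holds 47323 probes, short sequences attached to beads, and the brightness of a probe follows the amount of the matching RNA. The drug-selected array was brighter, with a median deposited signal of 63.1 against 52.5 on the parental array, and 45.6% against 42.5% of probes detected. Detected means a detection p under 0.05 relative to negative control beads. Signals were corrected for background, brought to the same distribution by quantile normalization and converted to log2, and every log2 difference below is drug-selected minus parental on that scale. A gene is represented by its brightest detected probe, and lower and higher mean a fold under 0.5 or above 2. Between detected probes of the same gene, the SD of the log2 difference was 0.297 over 2892 genes. This spread is between probes and not between cultures. The melanocyte lineage markers were detected on both arrays for 6 of 7 genes with a probe, while S100B was not detected. Their summed signal was 39120 in parental and 4931 in drug-selected cells. The 5 lower genes were MITF, PMEL, MLANA, TYR and TYRP1, while SOX10 had a log2 difference of -0.91. TYR read 7821 and 69.0, the latter near the detection limit. Of the 5 fibroblast markers 1 was detected on the parental array and 4 on the drug-selected array, with COL1A2 at background on both. Among them 3 were higher (COL3A1, PDGFRB and FAP). Their summed signal was 232.3 against 907.9, and the parental sum includes probes that were not detected there. The single detected leukocyte marker, CD68, read 1039 against 2507. The 2 detected endothelial markers together read 125.8 against 202.2, with PECAM1 2.41-fold higher and VWF at a log2 difference of -0.20. PTPRC, CD3E, CDH5, KDR and the 3 keratinocyte markers were not detected. The part of these cell types in the differences below was not tested.

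Genes that lie next to each other on a chromosome share the same stretch of DNA and its copies, and they can share regulatory domains. Pairs of genes that start close together and run in opposite directions share the DNA between their starts as a promoter. The chromosome 6 stretch is known in melanoma for TFAP2A, a transcription factor of neural crest and melanocytes, and for NEDD9, a scaffold protein of focal adhesions. The 17q25 stretch is a dense block of broadly expressed genes for protein folding, proline synthesis, vesicle transport and ubiquitin ligases.

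The DNA at the starts of 5 pairs or genes is shown, because 3 pairs that start head to head have like differences in one case and unlike differences in the others, and because TBC1D7 and MYLIP had the largest differences among the chromosome 6 members by their brightest probes. The sequences come from RefSeq on GRCh38.p14 and are written 5′ to 3′. Capitals mark matches on either strand to CCAAT, the CCAAT box, and GGGCGG, the GC box, and no match overlapped another. The C6orf52/PAK1IP1 stretch at chr6:10694798-10694971 is the whole 174 bases between the starts, on the plus strand. The ARL16/HGS stretch at chr17:81683798-81684010 is the whole 213 bases between the starts, on the plus strand. The CENPX/LRRC45 stretch at chr17:82023055-82023304 is 250 of the 426 bases between the starts, on the plus strand. The last 2 are the 250 bases before the start of TBC1D7, at chr6:13328538-13328787 on the minus strand, and of MYLIP, at chr6:16128836-16129085 on the plus strand.
C6orf52/PAK1IP1: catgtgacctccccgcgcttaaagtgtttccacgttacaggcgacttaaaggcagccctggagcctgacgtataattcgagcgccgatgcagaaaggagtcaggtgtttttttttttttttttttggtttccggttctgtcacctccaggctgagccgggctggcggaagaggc
ARL16/HGS: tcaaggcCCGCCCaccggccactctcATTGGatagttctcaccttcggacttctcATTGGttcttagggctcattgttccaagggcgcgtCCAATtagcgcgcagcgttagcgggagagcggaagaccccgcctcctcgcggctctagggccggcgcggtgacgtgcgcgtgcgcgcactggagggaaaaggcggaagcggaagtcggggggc
CENPX/LRRC45: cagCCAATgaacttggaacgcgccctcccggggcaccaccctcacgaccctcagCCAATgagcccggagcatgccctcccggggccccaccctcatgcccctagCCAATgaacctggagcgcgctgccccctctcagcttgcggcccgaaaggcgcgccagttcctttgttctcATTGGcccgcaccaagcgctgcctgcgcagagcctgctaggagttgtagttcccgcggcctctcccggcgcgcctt
TBC1D7: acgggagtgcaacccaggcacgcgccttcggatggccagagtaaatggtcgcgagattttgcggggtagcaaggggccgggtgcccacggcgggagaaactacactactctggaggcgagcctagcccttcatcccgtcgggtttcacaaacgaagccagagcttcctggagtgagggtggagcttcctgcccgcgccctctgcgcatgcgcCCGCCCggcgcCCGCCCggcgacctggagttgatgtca
MYLIP: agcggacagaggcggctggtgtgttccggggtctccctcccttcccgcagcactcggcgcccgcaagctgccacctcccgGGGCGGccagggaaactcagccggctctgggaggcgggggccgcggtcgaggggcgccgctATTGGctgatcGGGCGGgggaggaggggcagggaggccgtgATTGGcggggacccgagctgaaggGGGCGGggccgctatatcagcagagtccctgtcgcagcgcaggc

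On chromosome 6, 10 of 26 members (38.5%) were lower in drug-selected cells and 0 were higher, where 5.84% of all detected genes were lower and 7.12% higher. The rule chose the members from this contrast, so nothing is read from the excess. The log2 difference was below 0 for 25 of 26 members, against 50.4% of all detected genes, and 17 members were lower by over 1.5-fold (65.4%), against 15.9%. The median difference of the members was -0.84, with a range from -2.32 to 0.26, and that of all detected genes was -0.0034. Without any correction, the deposited signal itself was lower on the brighter drug-selected array for 18 members (69.2%), against 20.1% of all detected genes. The count of 10 fell to 4 without normalization between the arrays and to 7 with scaling to the median. It was 8 with the authors' normalized table, without background correction or with an offset of 50, and 12 with an offset of 0. SMIM13 was past 2-fold in 5 of 10 alternative settings.

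**Figure D1:**
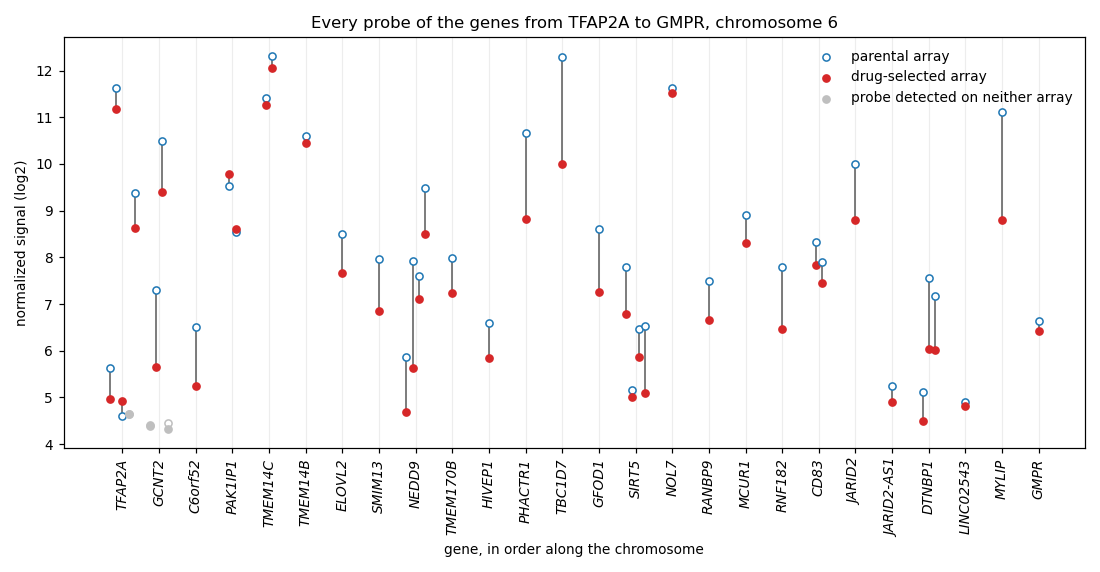
Normalized log2 signal of every probe of the 26 chromosome 6 members on the parental array (open blue points) and the drug-selected array (red points), in order along the chromosome, with probes detected on neither array in grey. PHACTR1, TBC1D7 and MYLIP show the widest gaps of the brightest probes, and PAK1IP1 is the single member whose brightest probe was above 0 in difference.

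The ubiquitin ligases and signalling scaffolds held the largest differences of the chromosome 6 stretch. MYLIP, a ubiquitin ligase that targets the low-density lipoprotein receptor, had a deposited signal of 1941 on the parental array and of 547 on the other. On the normalized log2 scale these were 11.12 and 8.80, a level 5.00-fold lower. RNF182, another ubiquitin ligase, read 218 and 138 and was 2.53-fold lower. TBC1D7, a subunit of the TSC complex that restrains mTORC1, read 4335 and 1206, or 12.30 and 9.99 on the log2 scale, and was 4.93-fold lower. PHACTR1, which binds actin and protein phosphatase 1, read 1419 and 551 and was 3.60-fold lower. These 4 genes span bright and moderate probes, and each deposited signal was lower on the brighter array. The remaining scaffolds did not pass 2-fold by their brightest probes. NEDD9 read 641 and 453, a log2 difference of -0.97, and RANBP9, a subunit of the CTLH ubiquitin ligase, read 183 and 154, a difference of -0.84.

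Of the transcription and chromatin genes 1 of 3 was lower. JARID2, an accessory subunit of Polycomb repressive complex PRC2, read 904 and 549 and was 2.28-fold lower. TFAP2A, at the start of the stretch, had nearly the same deposited signal on both arrays, 2728 and 2694, and a log2 difference of -0.44. HIVEP1, a zinc finger protein that binds κB-like sites, read 112 and 103, a difference of -0.75. The noncoding JARID2-AS1 and LINC02543 had signals between 56.7 and 69.2, near the detection limit, with differences of -0.35 and -0.10. JARID2-AS1 runs antisense beside JARID2 and strand handling of the probes was not examined here.

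DTNBP1, a subunit of the BLOC-1 complex for lysosome-related organelles such as melanosomes, read 189 and 112 and was 2.89-fold lower. At the cell surface, GCNT2, the enzyme that makes I-antigen branches on glycans, read 1269 and 815 and was 2.13-fold lower. CD83, a surface protein of activated immune cells, had a deposited signal of 302.7 and 302.8 and a log2 difference of -0.48. Without normalization between the arrays its difference was -0.04, where the median of all genes was 0.37. Of 4 genes given no role here, GFOD1 was 2.54-fold lower, C6orf52 2.42-fold and SMIM13 2.17-fold. C6orf52 was dim, at 107 and 79.1, and its difference moved from -1.79 to -0.80 with the offset of the background correction, while GFOD1 read 364 and 214 and SMIM13 242 and 169. TMEM170B, at 247 and 211, had a difference of -0.75.

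None of the 6 genes of mitochondria, lipids and nucleotides passed 2-fold, with log2 differences from -0.99 to -0.16. SIRT5, a mitochondrial desuccinylase, was nearest, at 216 and 165, or 1.98-fold. ELOVL2, which elongates polyunsaturated fatty acids, had a difference of -0.83, and MCUR1, a regulator of the mitochondrial calcium uniporter, of -0.59. TMEM14C, which serves heme synthesis in mitochondria, read 4419 and 4974, with a difference of -0.25. Its neighbour and relative TMEM14B had -0.16, and GMPR, which turns GMP into IMP, had -0.23. Of the nucleolar genes, NOL7 read 2749 and 3335 with a difference of -0.12, and PAK1IP1, which acts in assembly of the large ribosomal subunit, read 660 and 1045 with a difference of 0.26. The members just inside the 2-fold threshold were GCNT2 and SMIM13, and those just outside were SIRT5 and NEDD9.

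Read probe by probe, 41 of 44 chromosome 6 probes were detected, 38 of them on both arrays. Of the 41, 15 were lower (36.6%), none was higher and 38 were below 0, with a median log2 difference of -0.75. Over all 23307 detected probes 5.07% were lower, 5.84% higher and 50.3% below 0. Of 8 genes with several detected probes, 6 had every probe below 0, while only GCNT2 had every detected probe lower, by 2.13-fold and 3.13-fold. NEDD9 was the most divided. Its probe at 235 on the parental array read 93.6 on the drug-selected array and was 4.89-fold lower, its probe at 193 read 196 with a difference of -0.49, and its dimmest, detected on the parental array only, was at least 2.10-fold lower. An "at least" fold sets the dim side at the higher of its own level and the lowest level of any detected probe. The SIRT5 probes ran from -1.44 to -0.15 and those of DTNBP1 from -1.53 to -0.62, the last with a bound of at least 1.25-fold lower. TFAP2A had differences of -0.75, -0.65 and -0.44 on probes detected on both arrays, and its dim probe detected on the drug-selected array only was at least 1.03-fold higher. The paired probes of CD83 (-0.48 and -0.45), TMEM14C (-0.25 and -0.14) and PAK1IP1 (0.26 and 0.06) differed by 0.03, 0.11 and 0.20. The other 3 probes, 2 of GCNT2 and 1 of TFAP2A, were detected on neither array.

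On chromosome 17, 7 of 21 members (33.3%) were lower and 0 were higher, beside the same 5.84% and 7.12% of all detected genes. The difference was below 0 for 20 of 21 members, against 50.4% of all detected genes, and 13 were lower by over 1.5-fold (61.9%), against 15.9%. The median log2 difference was -0.76, with a range from -2.36 to 0.05. The deposited signal was lower on the brighter array for 14 members (66.7%), against 20.1% of all detected genes. The count of 7 fell to 4 with the authors' normalized table, without background correction or with an offset of 50, and to 3 without normalization or with scaling to the median. MAFG, LRRC45 and MCRIP1 were past 2-fold in 5 of 10 alternative settings.

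**Figure D2:**
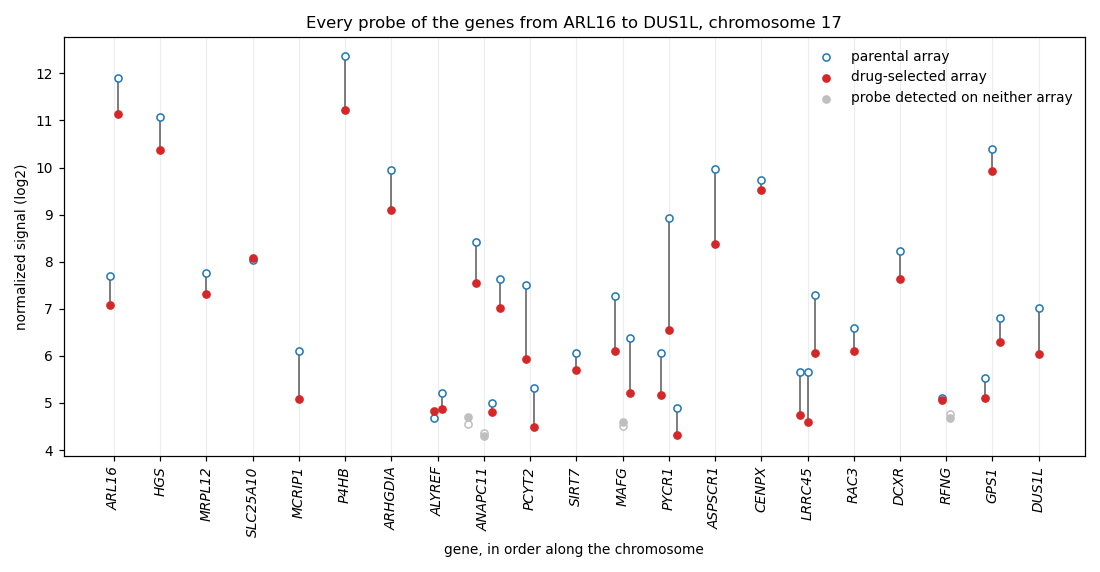
Normalized log2 signal of every probe of the 21 chromosome 17 members on the parental array (open blue points) and the drug-selected array (red points), in order along the chromosome, with probes detected on neither array in grey. PYCR1, ASPSCR1 and PCYT2 show the widest gaps of the brightest probes, and SLC25A10 is the single member whose brightest probe was above 0 in difference.

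Among the chromosome 17 members the largest difference was in PYCR1, the mitochondrial enzyme of the last step of proline synthesis. Its brightest probe gave 445 as deposited on the parental array and 146 on the other, or 8.92 and 6.56 on the log2 scale, and was 5.13-fold lower. Its other detected probes gave 1.88-fold and, on the parental array only, at least 1.07-fold, so the size rests on 1 probe. The median over its probes was -0.91, which does not pass 2-fold. The other mitochondrial members were close to 0 or moderate. MRPL12, a mitochondrial ribosomal protein, read 214 and 221 with a difference of -0.45, and SLC25A10, the dicarboxylate carrier, read 252 and 350 with a difference of 0.05.

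Endoplasmic reticulum, lipid and sugar genes included 2 lower members of 3. P4HB, protein disulfide isomerase and the beta subunit of collagen prolyl 4-hydroxylase, read 4527 and 2761 and was 2.21-fold lower. PCYT2, the enzyme that makes CDP-ethanolamine for phosphatidylethanolamine, read 183 and 108 and was 2.95-fold lower. DCXR, a reductase of xylulose, read 284 and 265, a log2 difference of -0.59. Among the trafficking genes, ASPSCR1, also called TUG, a tether of glucose transporter vesicles, read 890 and 416 and was 3.05-fold lower. ARL16, a small GTPase, read 3251 and 2612 with a difference of -0.76, and HGS, the ESCRT-0 subunit that sorts ubiquitinated receptors, read 1875 and 1548 with a difference of -0.70.

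Of 6 genes of nucleus and RNA, 2 were lower. MAFG, a small MAF partner of NRF2, read 160 and 116 and was 2.25-fold lower. MCRIP1, a regulator of the CtBP corepressor, read 87.6 and 74.5 and was 2.01-fold lower, just inside the threshold, and with a background offset of 50 its difference was -0.59. DUS1L, a tRNA dihydrouridine synthase, was just outside at 1.97-fold, with 140 and 113. SIRT7, a nuclear deacylase, had a difference of -0.36, ALYREF, an mRNA export adaptor, of -0.34, and CENPX, a subunit of the kinetochore and of the MHF complex, of -0.20. LRRC45, a protein of the centrosome linker, read 163 and 115 and was 2.33-fold lower. The ubiquitin system genes did not pass 2-fold, at -0.87 for ANAPC11, the RING subunit of the anaphase-promoting complex, and -0.46 for GPS1, a subunit of the COP9 signalosome. The genes of signalling and Notch did not either. ARHGDIA read 878 and 661 with a difference of -0.86, RAC3, a small GTPase, had -0.49, and RFNG, a glycosyltransferase that modifies Notch, had -0.05 at the dim signals of 60.6 and 73.9.

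Of 37 chromosome 17 probes 33 were detected, 28 of them on both arrays and 4 on the parental array only. Of the 33, 9 were lower (27.3%), none was higher and 31 were below 0, with a median log2 difference of -0.70. Over all detected probes 5.07% were lower, 5.84% higher and 50.3% below 0. Of 8 genes with several detected probes, 7 had every probe below 0, and only MAFG had every detected probe lower, by 2.25-fold and 2.24-fold. LRRC45 had bounds of at least 1.82-fold and 1.83-fold lower on its dimmer probes, and PCYT2 of at least 1.43-fold. The 3 GPS1 probes lay between -0.52 and -0.43 although their parental signals ran from 70.2 to 1180, and the ARL16 probes gave -0.76 and -0.61. The ANAPC11 probes ran from -0.87 to -0.20, with the smallest difference at the dimmest probe. The exception was ALYREF. Its probe detected on both arrays had -0.34, and its other probe was detected on the drug-selected array only, at a level under the lowest detected on the parental array, so it has no direction. Of the 4 probes detected on neither array, 2 belonged to ANAPC11, 1 to MAFG and 1 to RFNG.

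Most flanking genes of both stretches also had differences below 0. Counts pooled over a flank do not show where such a run ends, and the later chromosome 17 flank reaches the last detected gene of its chromosome. Over the 15 nearest detected genes on each side of the chromosome 6 stretch, 8 of 30 were lower (26.7%), 0 were higher and 25 were below 0, with a median log2 difference of -0.57. For chromosome 17 the flanks held 6 lower genes of 30, with 0 higher and 25 below 0, with a median of -0.58. Of all detected genes 5.84% were lower, 7.12% higher and 50.4% below 0. The nearest neighbours outside chromosome 6 were SLC35B3 (-0.76) and HULC (-0.44) before TFAP2A, and ATXN1 (-0.38) and ATXN1-AS1 (-0.19) after GMPR. HULC is a noncoding RNA detected on the parental array only, where its bound was at least 1.13-fold lower. Beside chromosome 17 they were OXLD1 (-0.57) and CCDC137 (0.03) before ARL16, and FASN (-1.72) and CSNK1D (0.10) after DUS1L. FASN, fatty acid synthase, read 9452 and 4002 and was 3.29-fold lower. Some flanking genes, named here after their values were seen, had larger differences than every member of their chromosome. They were TSPAN10 on chromosome 17, at 11.3-fold lower, and DSP at 6.04-fold and CAP2 at 5.22-fold lower on chromosome 6, with RNF144B, detected on the parental array only, at least 8.31-fold lower. Inside the chromosome 6 stretch, 6 other genes had a probe, ADTRP, EDN1, ERVFRD-1, GCM2, MAK and SYCP2L, and none was detected. Of 5 other genes inside the chromosome 17 stretch, GCGR, NOTUM, NPB and PPP1R27 were not detected, and the noncoding MILIP had a difference of 0.02. The members are therefore all detected genes inside the first stretch and all but MILIP inside the second.

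**Figure D3:**
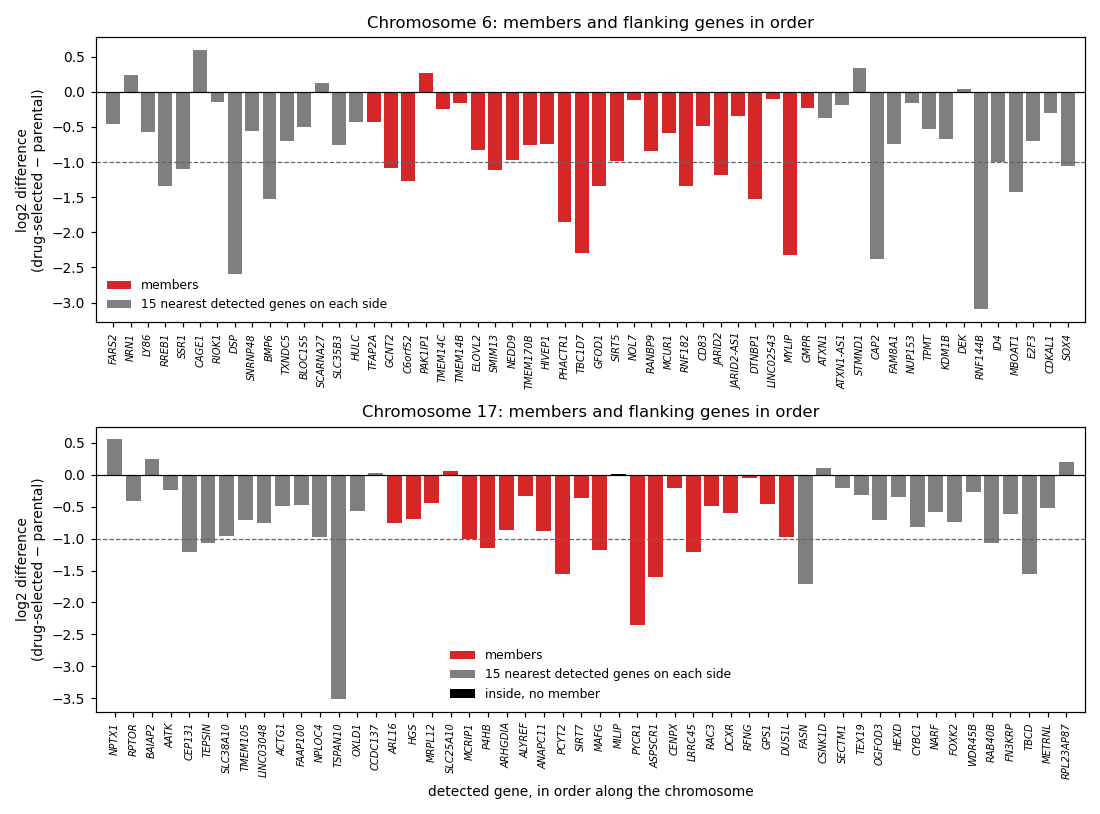
Log2 difference, drug-selected minus parental, of each member and of the 15 nearest detected genes on each side, in order along chromosome 6 (top) and chromosome 17 (bottom), with a dashed line at the 2-fold threshold. On each chromosome 25 of 30 flanking genes were below 0, beside 50.4% of all detected genes. The run is not unbroken, as CCDC137, directly before ARL16, is at 0.03.

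The rest of the 2 chromosomes differed from each other. The other 633 detected genes of chromosome 6, flanks and members left out, had 55 lower (8.69%) and 41 higher, with a median log2 difference of -0.14. The other 721 of chromosome 17 had 18 lower (2.5%) and 64 higher, with a median of 0.18. The members of chromosome 17 therefore lay on the other side of 0 from most of their chromosome, while those of chromosome 6 lay lower on a chromosome whose other genes had a median below 0. In windows of 20 neighbouring detected genes, the chromosome 6 window from GCNT2 to JARID2 had a median of -0.90, the lowest of 35, with 19 of 20 genes below 0. Of the first 20 windows of chromosome 6, 19 had a median below 0, and of the later 15 it was 5. On chromosome 17, the last 3 of 39 windows had medians of -0.53, -0.87 and -0.59, of which the last holds 13 genes, against 7 of the earlier 36 below 0. The window from GCNT2 to JARID2 holds members only, and the window at -0.87 holds 17 members. Members were chosen for lower signals on these arrays, so the ranks of these windows are no result. The places where the windows were divided were chosen after their values were seen, and no test was made.

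**Figure D4:**
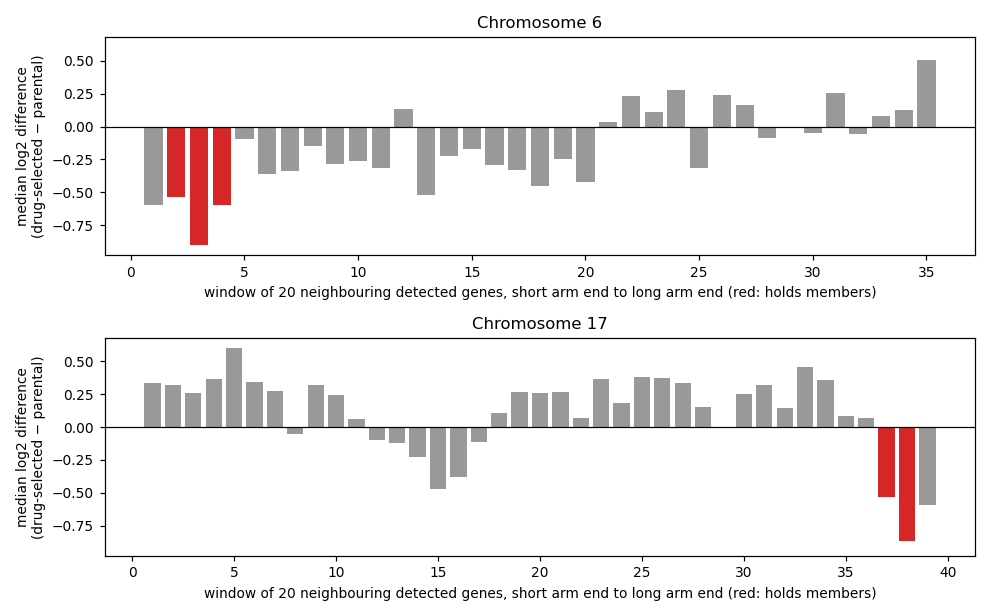
Median log2 difference, drug-selected minus parental, in windows of 20 neighbouring detected genes along chromosome 6 (top) and chromosome 17 (bottom), from the short arm end to the long arm end, with windows that hold members in red. The lowest chromosome 6 window, at -0.90, and the lowest chromosome 17 window, at -0.87, both hold members. The members were chosen for lower signals on these same arrays, so these ranks are no result.

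Within the stretches, genes that start head to head did not always have like differences. C6orf52 (-1.27) and PAK1IP1 (0.26), whose starts are 174 bases apart, differed by 1.53 on the log2 scale. CENPX (-0.20) and LRRC45 (-1.22), 426 bases apart, differed by 1.01 in size, while ARL16 (-0.76) and HGS (-0.70), 213 bases apart, differed by 0.06. The other head-to-head pairs were JARID2-AS1 (-0.35) and JARID2 (-1.19), ALYREF (-0.34) and ANAPC11 (-0.87), and RFNG (-0.05) and GPS1 (-0.46), with 158, 125 and 86 bases between starts. In the sequences printed above, the stretch between C6orf52 and PAK1IP1 had no match to either motif. The ARL16/HGS stretch had 3 CCAAT boxes and 1 GC box, and CENPX/LRRC45 had 4 CCAAT boxes. TBC1D7 had 2 GC boxes, and MYLIP 3 GC boxes and 2 CCAAT boxes. A match is a description of letters and not a binding site.

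RefSeq promoters, 250 bases before to 50 after a start, were found for 42 of 47 members, 72 promoters in all. The GC box was in 69.4% of them, beside 63.4% of promoters of detected genes and 45.0% of all 35116 promoters. The CCAAT box was in 34.7%, beside 35.2% and 34.6%. The E-box CACGTG was in 12.5%, beside 9.18% and 7.26%, its relative TCATGTG, the M-box bound by MITF, in 5.56%, beside 1.93% and 2.92%, and TATAAA in 13.9%, beside 6.91% and 11.5%. The M-box share comes from 4 promoters of 3 genes, C6orf52, PAK1IP1 and MAFG. Promoters of genes that start head to head overlap, so 1 match can count for both genes in any of these shares. C6orf52 and PAK1IP1, with 174 bases between their starts, are such a pair. The median GC content was 62.2% for chromosome 6 members and 73.0% for chromosome 17 members, beside 64.3% for promoters of detected genes, so the stretches lie on opposite sides of that value.

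The members were then set beside genes of the same complex, family or pathway, from 24 lists that hold 26 members and 108 partners outside the stretches. Of the partners 95 were detected, 4 lower (4.21%) and 4 higher (4.21%), with a median log2 difference of 0.0022. Of all detected genes 5.84% were lower and 7.12% higher. The members had been chosen for lower signals on these arrays and the partners had not, so a member below its partners is no result in itself. TBC1D7 (-2.30) stood beside TSC1 (-0.21) and TSC2 (0.48), its partners in the TSC complex. The 10 partners of JARID2 in PRC2 had a median of -0.18, and EZH2, the catalytic subunit, had -0.37. The 6 detected partners of DTNBP1 in BLOC-1 had a median of 0.17, with 4 above 0. Among these 6, BLOC1S5 (-0.51) lies in the chromosome 6 flank. GPS1 (-0.46) stood beside 8 COP9 subunits with 7 above 0 and a median of 0.30. MCUR1 (-0.59) stood beside 5 genes of the calcium uniporter with a median of 0.32. MICU3 among them was detected on the drug-selected array only, under the lowest level detected on the parental array, so it has no direction. The other calcium uniporter genes lay above 0. PYCR1 (-2.36) stood beside ALDH18A1 (0.31), the first enzyme of proline synthesis, and PYCR3, detected on the drug-selected array only and at least 1.82-fold higher. In these 6 lists no detected partner was past 2-fold lower.

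In other lists the partners lay below 0 as well. All 4 detected partners of PCYT2 in phosphatidylethanolamine synthesis did, with a median of -0.57, as did all 4 detected sirtuins outside the stretches, with a median of -0.44, beside SIRT5 (-0.99) and SIRT7 (-0.36). P4HA1 (-0.40) and P4HA2 (-0.42), catalytic subunits of prolyl 4-hydroxylase, stood beside P4HB (-1.14). TMEM14A (-0.90), also on chromosome 6, lay below TMEM14B and TMEM14C. The 4 lower partners were MAFF, a small MAF like MAFG, at 2.35-fold, ARHGDIB, a relative of ARHGDIA, at 2.09-fold, WDR26 of the CTLH ligase (-1.10) and CDC16 of the anaphase-promoting complex (-1.61). The 4 higher partners were RAC2, a small GTPase of blood cells, at 37.7-fold, LFNG, a relative of RFNG, at 2.69-fold, THOC6 of the TREX complex at 2.08-fold, and TFAP2C, a relative of TFAP2A, at least 5.76-fold. RAC2 read 70.7 and 2093. Of the leukocyte markers PTPRC and CD3E were detected on neither array, and CD68 was 1.85-fold up, short of the threshold. The part of other cell types was not tested.

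**Figure D5:**
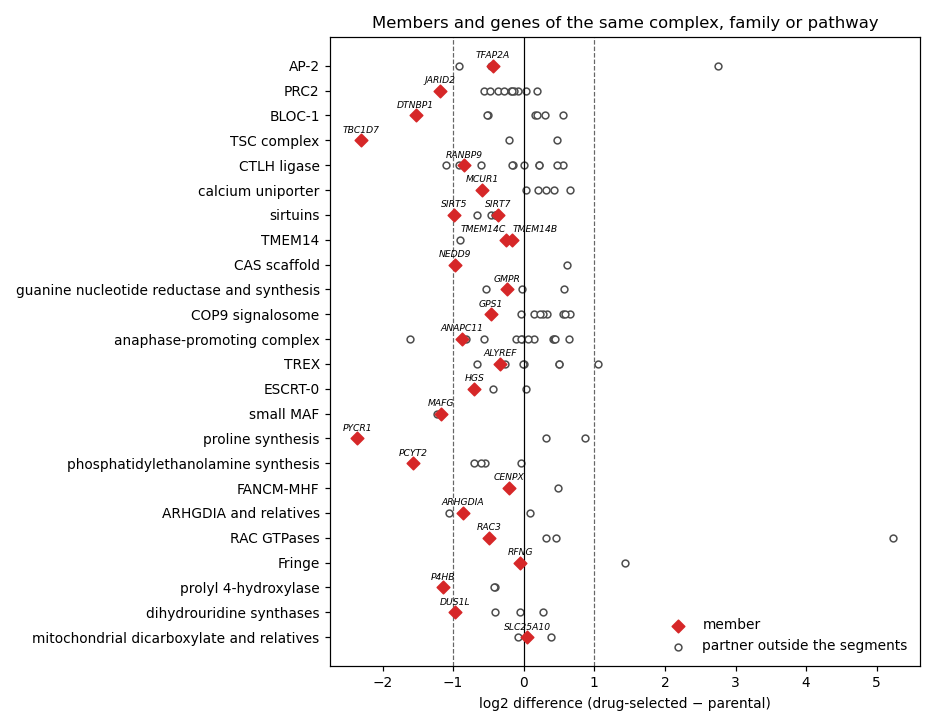
Log2 difference, drug-selected minus parental, of members (red diamonds) and of detected partners outside the stretches (open circles), 1 line per complex, family or pathway. The partner median over all lists is 0.0022, while TBC1D7 lies at -2.30 and PYCR1 at -2.36. Members were chosen for lower signals on these arrays and partners were not.

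Some of these calls depended on the processing. Across 10 alternative settings of processing, PHACTR1, TBC1D7, DTNBP1 and MYLIP on chromosome 6 and PCYT2 and ASPSCR1 on chromosome 17 were past 2-fold in every one. The difference stayed below 0 in every setting for 20 of 26 and 17 of 21 members. It stayed below the median of all genes in every setting for 25 of 26 and 20 of 21, with PAK1IP1 and SLC25A10 as the exceptions.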

How the data were processed

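RNA of parental and drug-selected A2058 cells had been measured on Illumina bead arrays, 1 array each. The table the authors deposited gives the mean bead intensity per probe, linear and not normalized. The detection p-value deposited beside it compares a probe with negative control beads. A second deposited table holds the authors' normalized intensity, for which the sources used here name no method, and it was used as an alternative. The paper's methods define the fold by culture form (suspended, adherent), which matches neither label, so drug-selected over parental was used. No intensity lay below 25.7 (parental) or 30.5 (drug-selected), so the table was treated as not background-subtracted, although a subtraction of background per bead is named in the paper's methods. If the values had been subtracted already, the correction below was a second one. Without it 4 instead of 7 chromosome 17 members were lower, and C6orf52 had -0.81 instead of -1.27.

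Intensities were corrected with limma 3.58.1 in R 4.3.3 (normexp, background from the detection p-values, offset 16), then quantile normalized and converted to log2. A probe was kept if its detection p was under 0.05 on either array, 23307 in all, of which 18360 were detected on both. Each gene was represented by its brightest kept probe (mean log2). The platform's annotation gives 1 symbol for 30113 probes and several for 8, and 30074 named probes matched GRCh38.p14 by gene identifier, from which the order of genes was taken. All 47 members are named, as are the nearest 2 detected genes outside each end, other genes inside and partners past 2-fold. The members and lists were chosen with earlier results of these data known. Genes outside this rule, the lineage markers and further partners, are named as examples of their lists. Processing was tested on simulated data in which few probes changed, all well above background, so that test does not cover dim members. Python 3.11.15 with pandas 2.3.3, numpy 2.4.6 and matplotlib 3.10.9 made counts and figures.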

Additional observations from a re-analysis of the deposited data

How the results depend on the processing

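Alternatives were other offsets, no background correction, other scaling or none between arrays, the authors' table, other detection filters, the median over probes and other thresholds. No member past 2-fold changed sign. Of the others, TMEM14C, TMEM14B, NOL7, LINC02543 and GMPR on chromosome 6 and SIRT7, CENPX and RFNG on chromosome 17 were above 0 in at least 1 setting. Leaving the arrays without normalization, which moved the median of all genes to 0.37, gave medians of -0.41 for chromosome 6 members, -0.32 for chromosome 17 members and -0.19 for chromosome 17 flanks. Scaling to the median, which moved it to 0.24, gave -0.46 for chromosome 17 members. Relative to the median of all genes, a comparison added after seeing the data, members lay at -0.83 and -0.75. Over the settings these values ran from -0.95 to -0.70 for chromosome 6 and from -0.81 to -0.68 for chromosome 17.

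Chromosome 6 members lower numbered 10, and 4 without normalization, 17 at 1.5-fold and 3 at 3-fold. They numbered 8 with the authors' table, without background correction or with an offset of 50, 7 with scaling to the median and 12 with an offset of 0. Chromosome 17 members lower numbered 7, and 4 with the authors' table, without background correction or with an offset of 50, 3 without normalization or with scaling to the median, 13 at 1.5-fold and 2 at 3-fold. Lower flanking genes of chromosome 6 numbered 8, and 5 without normalization, 14 at 1.5-fold and 3 at 3-fold. Those of chromosome 17 numbered 6, and 3 without normalization or with scaling to the median, 11 with an offset of 0, 15 at 1.5-fold and 2 at 3-fold.

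Lower partners numbered 4, and in settings added after seeing the data 1 without normalization, with scaling to the median or at 3-fold, 8 with an offset of 0 and 13 at 1.5-fold. Higher partners numbered 4, and 7 without normalization, 9 at 1.5-fold and 2 at 3-fold. Of all detected probes 1181 were lower, and 784 with the authors' table, 724 without background correction, 528 without normalization, 2640 and 713 with offsets of 0 and 50, 686 with scaling to the median, 3469 at 1.5-fold and 345 at 3-fold. Higher probes numbered 1362, and 760 at a detection p under 0.01 on both arrays, 2842 without normalization, 2698 and 863 with offsets of 0 and 50, 2124 with scaling to the median, 3176 at 1.5-fold and 647 at 3-fold. Without normalization 2.66% of genes were lower and 14.2% higher. Scaling to the median gave 3.38% and 10.9%, beside 5.84% and 7.12% as reported.

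No paired analysis was possible because each group has 1 array, and for the same reason no array was left out in turn.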
